A study of Mus musculus with 14 samples.

Results

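The genes described here are the primary (azurophil) granule and promyelocyte genes of the mouse, given as a list of 8 names: Mpo, Elane, Prtn3, Ctsg, Prss57, Ms4a3, Igsf6 and Nkg7-as. Membership rests on the names and uses no measured value. Of the 52550 genes in the count table, 7 carry these names, and 6 of the 7 had counts and were tested. Igsf6 was listed at 0 in every library. Nkg7-as had no entry of its own in the gene annotation used here and is given no value.

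RNA-seq of total RNA, after removal of ribosomal RNA, had been performed on 14 libraries of bone marrow cells from C57BL/6 mice. The 4 WT HSPC and the 4 Mir139KO HSPC libraries came from femurs and tibias of mice 8 to 20 weeks old. These marrow cells were enriched for haematopoietic stem and progenitor cells by removing cells with mature lineage markers, and went into TRIzol without culture. The 6 MLL-AF9 libraries came from WT HSPCs that were grown overnight with SCF, GM-CSF, IL-6 and IL-3 and then transduced with a retrovirus (pMSCV) carrying the MLL-AF9 fusion. Of these cultures, 3 carried a neo vector (replicates 1 to 3, selected on Neomycin) and 3 a puro vector (replicates 4 to 6, selected on Puromycin), and all had been re-plated in MethoCult at least 2 times. Viral expression, cytokines, drug and weeks of culture therefore belong to the MLL-AF9 group alone and cannot be told apart from it, and no culture with an empty vector is among the 14 libraries. The labels do not tie cultures to separate donor mice, so p-values measure the spread between these libraries. In bulk RNA, fewer cells of a type and less RNA per cell cannot be told apart.

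Primary granules are the first granules that a neutrophil precursor makes, at the promyelocyte stage, and they hold myeloperoxidase and a family of serine proteases. The genes for these proteins are switched on together in granulocyte-monocyte progenitors by C/EBPα, PU.1, MYB and RUNX1, and are switched off again as the cell moves on to make secondary granules. MLL-AF9 is a fusion oncoprotein of acute myeloid leukaemia that lets granulocyte-monocyte progenitors renew themselves in culture.

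The libraries held 35016668 to 45877994 counts. A single locus, Gm26917, took 17.0% to 35.4% of the counts in the 8 HSPC libraries and 7.55% to 10.4% in the MLL-AF9 libraries. WT HSPC 3 and 4 and Mir139KO HSPC 1 and 4 were over 25%, and the other 4 HSPC libraries under it. Levels are therefore given as CPM (counts per library total, in units of 1000000), scaled by TMM factors, which take account of such a locus. MLL-AF9 4 and 6 were closer to each other than any other pair (median chi-square per gene 1.26, where counting noise alone gives 0.455 and the next closest pair 3.45), and were kept as 2 libraries because they differed by more than counting noise. Such a difference does not show whether they came from separate cultures. Mir139 was listed at 0 in all 14 libraries, so the knockout could not be checked from these counts. Among markers of other cells, all 8 tested for T and NK cells, all 6 for B cells, all 6 for erythroid cells and all 8 for mast cells, basophils and eosinophils were lower in MLL-AF9 than in WT HSPC. Their summed levels went from 81.5 to 148 CPM down to 1.85 to 12.1 CPM for T and NK cells, and from 847 to 1207 CPM down to 0.801 to 2.38 CPM for erythroid cells. The summed B cell markers went from 34.1 to 67.7 CPM down to 1.54 to 6.27 CPM, and those of mast cells, basophils and eosinophils from 888 to 2037 CPM down to 5.81 to 34.3 CPM. Among the progenitor markers Meis1 and Hoxa9 were higher, and Kit, Cd34 and Flt3 lower, in MLL-AF9.

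The 6 genes with counts lie at 4 places in the genome (GRCm38, positions from GENCODE vM21). Prss57 (chr10:79781474-79790961, minus strand), Prtn3 (chr10:79874476-79883174, plus strand) and Elane (chr10:79886247-79888215, plus strand) are neighbours on chromosome 10. Mpo (chr11:87793581-87804413, plus strand), Ctsg (chr14:56099881-56102574, minus strand) and Ms4a3 (chr19:11629496-11640851, minus strand) lie alone. Bases upstream of the RefSeq starts are shown for 5 of them, since the regulators named above act there. Each line begins 250 bases before the RefSeq start and ends before the next annotated exon. The RefSeq starts of Mpo, Elane and Prtn3 lie inside the annotated genes, and the lines of Mpo and Elane end just before the annotated gene begins. The annotated Prtn3 gene also holds a transcript that starts further upstream. Distances are counted from the RefSeq starts. The lines are read 5′ to 3′ on the gene's strand (RefSeq, GRCm38.p6), and capitals mark matches to the motifs given after them.
Mpo, chr11:87793534-87793580 (+): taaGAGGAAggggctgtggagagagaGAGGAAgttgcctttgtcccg
Elane, chr10:79886062-79886246 (+): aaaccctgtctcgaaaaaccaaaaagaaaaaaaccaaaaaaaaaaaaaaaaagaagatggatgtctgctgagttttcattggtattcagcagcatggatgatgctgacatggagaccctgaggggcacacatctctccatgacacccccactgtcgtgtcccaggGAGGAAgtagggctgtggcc
Prtn3, chr10:79879417-79879613 (+): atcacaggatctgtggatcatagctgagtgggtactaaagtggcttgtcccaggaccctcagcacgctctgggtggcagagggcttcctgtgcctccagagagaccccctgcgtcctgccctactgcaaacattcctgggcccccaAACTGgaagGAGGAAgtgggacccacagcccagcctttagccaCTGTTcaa
Ctsg, chr14:56102575-56102824 (-): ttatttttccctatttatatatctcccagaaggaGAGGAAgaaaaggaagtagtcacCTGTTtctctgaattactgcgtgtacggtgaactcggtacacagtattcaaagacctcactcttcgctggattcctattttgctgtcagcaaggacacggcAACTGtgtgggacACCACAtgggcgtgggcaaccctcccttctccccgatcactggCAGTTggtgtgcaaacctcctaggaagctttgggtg
Ms4a3, chr19:11640852-11641101 (-): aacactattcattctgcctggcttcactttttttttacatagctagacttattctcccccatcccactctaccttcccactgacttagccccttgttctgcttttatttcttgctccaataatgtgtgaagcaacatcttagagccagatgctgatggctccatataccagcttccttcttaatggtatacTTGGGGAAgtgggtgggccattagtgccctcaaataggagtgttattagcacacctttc

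Motifs were searched on both strands in a window from 250 bases before to 50 bases after each RefSeq start, and no matches to different motifs overlapped. The window is longer than the lines shown, so 12 of the 18 matches are in capitals above. The PU.1 letters GAGGAA were found in 5 of the 5 promoters and in 28.3% of all 32851 promoters in the table. In Elane the match ended 80 bases before the start and in Prtn3 90 bases before it, while Mpo had 2 matches, beginning 247 and 224 bases before it. The single Ctsg match ended 211 bases before the start, and the Ms4a3 match lay 36 to 41 bases after it and so outside the bases shown. The MYB letters AACNG matched in 4 of 5 (all but Ms4a3) against 80.3% of all promoters. In Mpo and Elane the MYB matches lay outside the bases shown. The C/EBP letters TTNCNNAA matched in Ms4a3 alone, against 40.7% of all promoters. The RUNX letters TGTGGT matched in Ctsg alone, against 16.8%. These are matches of letters only and say nothing about whether a factor is bound.

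Mpo encodes myeloperoxidase, the haem enzyme that makes hypochlorous acid and is the most abundant protein of the granule. In WT HSPC replicates 1 to 4, Mpo stood at 2727, 2806, 7728 and 7042 CPM. In Mir139KO HSPC replicates 1 to 4 it stood at 7983, 3966, 3810 and 6300 CPM, and in the MLL-AF9 cultures at 119, 488 and 330 CPM with neo and 151, 619 and 161 CPM with puro. Every MLL-AF9 culture lay below every HSPC library, by a wide gap, whereas the HSPC groups overlapped. By number of reads Mpo ranked between 6 and 12 among all genes in WT HSPC and between 68 and 1343 in MLL-AF9.

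Elane encodes neutrophil elastase, a serine protease stored in the same granule. Its level in WT HSPC 1 to 4 was 899, 747, 1966 and 2032 CPM. In Mir139KO HSPC it was 2439, 1156, 1039 and 1820 CPM, and in MLL-AF9 157, 339 and 495 CPM with neo and 491, 1063 and 524 CPM with puro. MLL-AF9 5, a puro culture, reached the range of the HSPC libraries, and the other 5 cultures lay below it.

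Prtn3 encodes proteinase 3, the elastase-like protease whose gene is the neighbour of Elane. WT HSPC 1 to 4 held 609, 616, 1552 and 1480 CPM of Prtn3. Mir139KO HSPC held 1818, 955, 795 and 1443 CPM, and MLL-AF9 126, 286 and 282 CPM with neo and 225, 484 and 237 CPM with puro. All 6 cultures were below all 8 HSPC libraries.

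Ctsg encodes cathepsin G, a serine protease with chymotrypsin-like activity. Its WT HSPC levels were 362, 441, 800 and 792 CPM. The Mir139KO HSPC libraries held 826, 600, 509 and 712 CPM, the neo cultures 162, 268 and 250 CPM, and the puro cultures 502, 1097 and 573 CPM. Here the MLL-AF9 group fell into its 2 vectors: the neo cultures were below every HSPC library, and the puro cultures stood within or above the HSPC range.

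Prss57 encodes neutrophil serine protease 4, which cleaves after arginine and is far scarcer in the granule than its relatives. WT HSPC 1 to 4 had 34.98, 31.41, 70.9 and 71.4 CPM of Prss57. Mir139KO HSPC had 85.9, 48.7, 40.5 and 59.6 CPM, and MLL-AF9 13.8, 17.8 and 21.1 CPM with neo and 14.8, 27.9 and 15.3 CPM with puro. Every culture lay below every HSPC library.

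Ms4a3 encodes a membrane protein of the CD20 family that marks granulocyte-monocyte progenitors and is no granule enzyme. The gene stood at 108, 136, 175 and 196 CPM in WT HSPC 1 to 4. It stood at 221, 171, 140 and 165 CPM in Mir139KO HSPC, at 45.7, 231 and 171 CPM in the neo cultures and at 145, 231 and 157 CPM in the puro cultures. The groups overlapped throughout, and MLL-AF9 1 alone was below all other libraries.

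**Figure D1:**
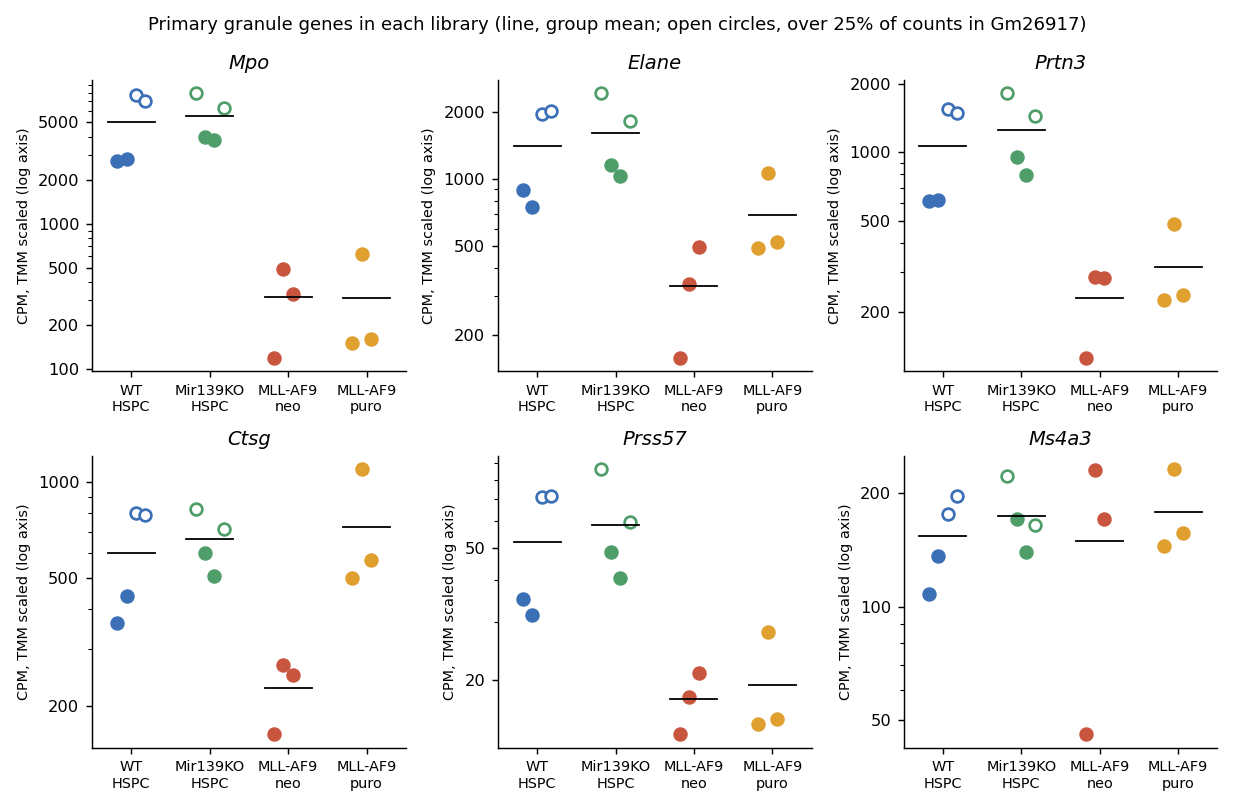
Level of each of the 6 genes in each library, in CPM scaled by TMM factors on a log axis, with 1 point per library, a line at the group mean, and open circles for libraries with over 25% of counts in Gm26917. The MLL-AF9 points of Mpo, Prtn3 and Prss57 lie below every HSPC point, those of Ctsg lie below only with neo, and those of Ms4a3 overlap the HSPC points.

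Igsf6 encodes an immunoglobulin superfamily membrane protein of myeloid cells. The gene (chr7:121064067-121074572, minus strand) lies wholly inside Mettl9, on the other strand, and had 0 counts in all 14 libraries. Of 680 protein-coding genes that lie wholly inside another gene and share no exon bases with it, 665 (97.8%) were at 0 in all libraries, against 2401 of 11686 (20.5%) that overlap no gene. The value of 0 is thus what the table gives for nearly all genes in such a position, and the level of Igsf6 is not known from it. Other genes of the set overlap neighbours only in part: 5361 of the 10833 bases of Mpo lie inside the antisense gene Gm11505, 1157 bases of Prss57 overlap Fstl3 and 159 bases of Prtn3 overlap Plppr3. The strand setting of the counting is not given in the sources used here, so reads from these stretches cannot be assigned to a strand.

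The 6 genes together took 0.521% to 0.802% of all counts in WT HSPC, 0.612% to 0.821% in Mir139KO HSPC and 0.0853% to 0.415% in MLL-AF9. Divided by the length of the merged exons, the levels in WT HSPC were 1482 ± 783 CPM per kb for Mpo and 1434 ± 694 for Elane (SD, n = 4). Prtn3 and Ctsg came next, at 615 ± 301 and 580 ± 223 CPM per kb, followed by Ms4a3 at 81.7 ± 21.0 and Prss57 at 18.3 ± 7.72. Neither Mpo and Elane nor Prtn3 and Ctsg differed beyond their spread. In MLL-AF9 the order on this scale was another: Elane stood at 520 ± 308 and Ctsg at 460 ± 332 CPM per kb (SD, n = 6), above Prtn3 at 158 ± 68.3. Mpo, at 90.9 ± 60.1 CPM per kb, stood beside Ms4a3 at 86.7 ± 36.3, and Prss57 remained the lowest at 6.48 ± 1.87. With merged exons as length, Mpo thus stood beside Elane in WT HSPC and beside Ms4a3 in the cultures. With exon bases outside other genes as length, Mpo stood higher, at 2144 ± 1132 CPM per kb in WT HSPC and 131 ± 86.9 in MLL-AF9. The values of Elane and Ms4a3 did not change. With the longest transcript as length, Prtn3 stood at 1038 CPM per kb in WT HSPC, above Ctsg.

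The first comparison asked how the transformed cultures differ from the WT progenitors that they came from. Mpo, Prtn3, Prss57 and Elane were lower in MLL-AF9 than in WT HSPC, and Ctsg and Ms4a3 did not pass the test. In edgeR's quasi-likelihood test with Benjamini-Hochberg adjustment over 17077 genes, 62.2% of all genes passed and 29.4% were lower, so that 4 of 6 lower stands against a background in which many genes moved. In 50.5% of all genes the groups did not overlap, as they did not for 3 of the 6.

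Mpo fell from 5076 ± 2681 CPM (SD, n = 4) to 311 ± 206 (SD, n = 6), which is 16.5-fold (log2 -4.05, SE 0.54, edgeR adjusted p = 8.47e-05). Prtn3 fell from 1064 ± 522 to 273 ± 118 CPM, by 3.93-fold (log2 -1.98, SE 0.39, edgeR adjusted p = 0.00106). For Prss57 the fall was from 52.2 ± 22.0 to 18.4 ± 5.33 CPM, or 2.85-fold (log2 -1.51, SE 0.31, edgeR adjusted p = 0.00137). Mpo fell the most, and its interval of -5.21 to -2.88 on the log2 scale lay wholly below that of Prtn3 (-2.83 to -1.13).

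Elane fell from 1411 ± 683 to 511 ± 303 CPM, by 2.79-fold (log2 -1.48, SE 0.46, edgeR adjusted p = 0.0142). That call was lost with total counts in place of TMM factors (log2 -0.75, adjusted p = 0.130), with a GC correction (-0.60, 0.247), with the HSPC libraries under 25% Gm26917 alone (-0.75, 0.266) and with the puro cultures alone (-1.02, 0.106). Ctsg stood at 599 ± 230.1 CPM in WT HSPC and 475 ± 343 in MLL-AF9 (log2 -0.35, interval -1.39 to 0.70, edgeR adjusted p = 0.547). With the neo cultures alone the Ctsg value was -1.38 (adjusted p = 0.0160) and with the puro cultures alone 0.29 (0.591). Ms4a3 stood at 154 ± 39.5 and 163 ± 68.5 CPM (log2 0.07, interval -0.75 to 0.90, edgeR adjusted p = 0.878). Ms4a3 has the lowest transcript GC content of the 6 (40.0%, against 51.5% to 60.7% for the others), and with a GC correction its value was -1.93 (adjusted p = 0.00477), so its direction depends on that choice.

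The 4 genes that passed are an oxidase and 3 proteases of the granule, while the membrane protein Ms4a3 and the protease Ctsg did not pass. With total counts the median of all genes moved by 0.551, and Mpo, Prtn3 and Prss57 still passed. Over 14 other settings their smallest changes were -3.14 for Mpo, -0.999 for Prtn3 and -0.80 for Prss57. The 3 genes passed in 14 of 14 other settings and in 10 of 10 fits that each left out a library. With MLL-AF9 4 and 6 summed into 1 library, the values were -3.90 for Mpo, -1.92 for Prtn3, -1.46 for Elane and -1.45 for Prss57, and all 4 passed.

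**Figure D2:**
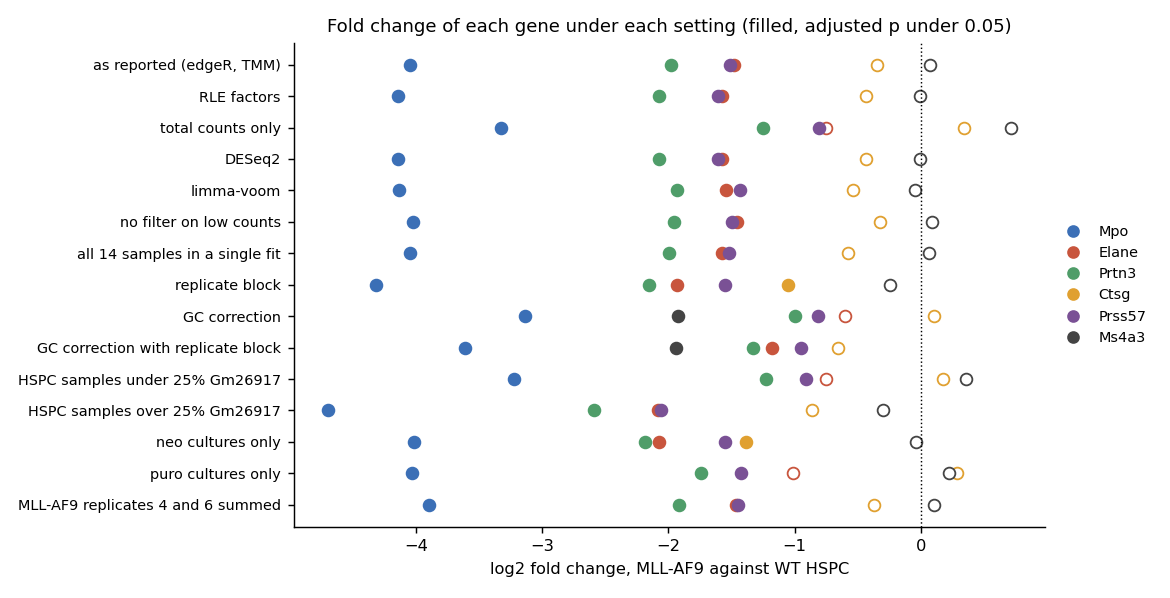
Log2 fold change of each of the 6 genes in MLL-AF9 against WT HSPC (horizontal axis) under each analysis setting (vertical axis), with filled points for an adjusted p under 0.05. Mpo, Prtn3 and Prss57 are filled and left of 0 in every line, Elane is open in 4, and Ctsg and Ms4a3 lie on both sides of 0.

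The second comparison asked what loss of Mir139 does to progenitors. None of the 6 genes passed, and none of 15056 genes did (0% in edgeR, with 86 genes at an unadjusted p under 0.05, and 0 genes in DESeq2 and in limma-voom). In 0.491% of genes the groups did not overlap, and this held for none of the 6. The log2 fold changes were 0.10 for Mpo (interval -0.91 to 1.12), 0.18 for Elane (-0.78 to 1.14) and 0.22 for Prtn3 (-0.72 to 1.16). Those of Ctsg, Ms4a3 and Prss57 were 0.13 (-0.59 to 0.85), 0.16 (-0.40 to 0.73) and 0.15 (-0.65 to 0.96). These intervals hold the spread between libraries over and under 25% Gm26917. With that class as a covariate the SE fell from 0.45 to 0.14 for Mpo, and the values were 0.21 for Mpo and 0.29 for Prtn3, the largest of the 6 (unadjusted p = 0.0461, edgeR adjusted p = 0.995). In the libraries under 25% alone all 6 values were above 0, from 0.35 for Ms4a3 to 0.52 for Prtn3 (edgeR adjusted p of 0.162 to 0.282), and in those over 25% they ran from -0.0868 for Ctsg to 0.0684 for Prtn3.

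The spread inside the HSPC groups was shared by the genes. In WT HSPC the libraries with over 25% of counts in Gm26917 held 2.67 times as much Mpo, 2.47 times as much Prtn3 and 2.43 times as much Elane as those under it. The same ratios in Mir139KO HSPC were 1.84, 1.86 and 1.94. For Ms4a3 the ratio was lowest in both groups, at 1.52 and 1.24. On total counts, without TMM factors, the WT HSPC ratios were 1.598 for Mpo and 0.912 for Ms4a3, so the size of this split depends on the scaling. Over the 8 HSPC libraries the log2 levels of the gene pairs had correlations of 0.860 to 0.991, which is a description of libraries that also share the Gm26917 split.

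The third comparison set the same MLL-AF9 cultures against Mir139KO HSPC and is no independent repeat of the first. The same 4 genes were lower, where 69.3% of 16953 genes passed in edgeR and 31.9% were lower. Mpo fell from 5515 ± 2001 CPM (SD, n = 4) by 17.9-fold (log2 -4.16, SE 0.49, edgeR adjusted p = 1.84e-05). Prtn3 fell from 1253 ± 467 CPM (log2 -2.21, adjusted p = 1.39e-04), Prss57 from 58.7 ± 19.8 (-1.68, 1.50e-04) and Elane from 1613 ± 649 (-1.67, 0.00403). Ctsg, at 662 ± 137 CPM in Mir139KO HSPC, had a log2 value of -0.49 (edgeR adjusted p = 0.343) and passed with the neo cultures alone (-1.53, 9.34e-04) and without MLL-AF9 5 (-0.92, 0.0381). Ms4a3, at 174 ± 34.2 CPM, had -0.11 (0.801), and -2.01 (7.01e-04) with a GC correction. Elane did not pass here with total counts (-0.88, adjusted p = 0.0615), with the GC correction (-0.74, 0.144) or with the libraries under 25% Gm26917 (-1.17, 0.0833). The groups did not overlap in 58.0% of all genes, and for Mpo, Prtn3 and Prss57 among the 6.

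The fourth comparison set the 3 puro cultures against the 3 neo cultures. Vector, drug and any difference in the time of culture cannot be told apart in it. None of the 6 genes passed in edgeR, where 0.873% of 16503 genes did (2259 genes had an unadjusted p under 0.05). Ctsg came nearest: it averaged 227 ± 56.5 CPM in neo and 724 ± 325 in puro (SD, n = 3 each), 3.16-fold higher in puro (log2 1.66, SE 0.34, interval 0.84 to 2.47, edgeR adjusted p = 0.0922). All 3 puro values were above all 3 neo values, as was the case in either direction for 19.9% of all genes and for no other of the 6. Ctsg passed in DESeq2 (adjusted p = 7.21e-04) and in edgeR with all 14 libraries in a single fit (0.0336). It also passed without MLL-AF9 5, the culture with the highest level (log2 1.28, adjusted p = 0.0433). The puro group was then MLL-AF9 4 and 6 alone, the closest pair of libraries. With MLL-AF9 4 and 6 summed, Ctsg did not pass (log2 1.84, edgeR adjusted p = 0.198).

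Elane averaged 331 ± 169 CPM in neo and 692 ± 321 in puro (log2 1.05, interval -0.07 to 2.17, edgeR adjusted p = 0.401). Prtn3 averaged 231 ± 91.3 and 315 ± 146 CPM (log2 0.43, adjusted p = 0.700). The remaining differences were small beside their spread: 0.25 for Ms4a3, 0.12 for Prss57 and -0.04 for Mpo, which stood at 312 ± 185 CPM in neo and 310.2 ± 267 in puro. The interval for Mpo was wide, from -1.677 to 1.599, since its level varied within each vector.

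**Figure D3:**
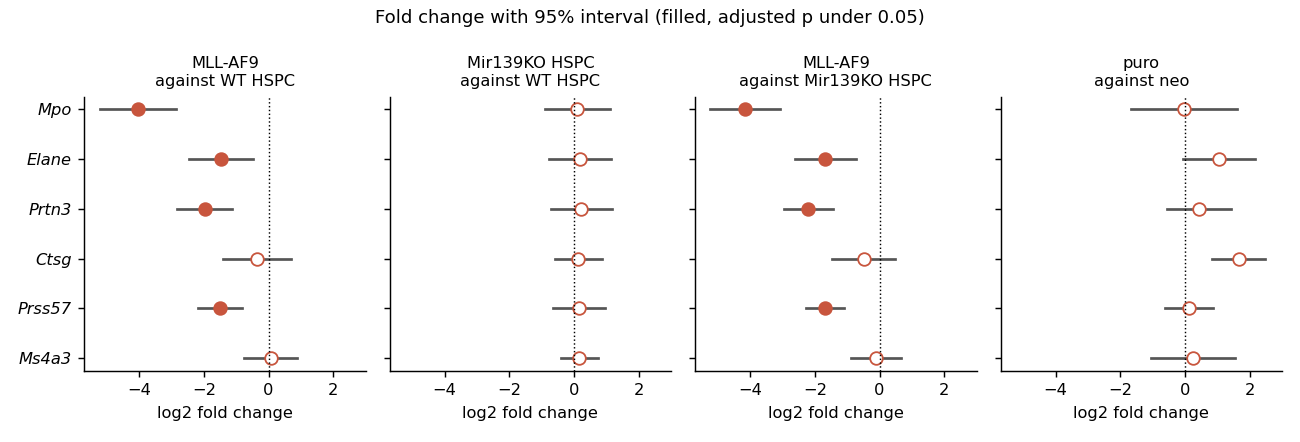
Log2 fold change of each gene in the 4 comparisons, with bars for the 95% interval and filled points for an adjusted p under 0.05 in edgeR. Mpo, Elane, Prtn3 and Prss57 are filled in both comparisons with MLL-AF9, and no point is filled in the other 2.

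Ratios of reads between the genes inside a library do not depend on how libraries are scaled, and 15 ratios were formed from the 6 genes, which share members and so are not independent. In the 8 HSPC libraries there were 3.03 to 3.93 Mpo reads per Elane read. In the cultures there were 0.755, 1.44 and 0.666 with neo and 0.307, 0.582 and 0.307 with puro. Mpo reads thus outnumbered Elane reads in every HSPC library, and in a single culture, MLL-AF9 2. Per Ctsg read there were 6.36 to 9.66 Mpo reads in HSPC, 0.731, 1.82 and 1.32 in the neo cultures and 0.300, 0.564 and 0.281 in the puro cultures.

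On the log2 scale the ratio of Mpo to Elane went from 1.82 ± 0.16 in WT HSPC to -0.78 ± 0.85 in MLL-AF9 (exact two-sided permutation test, p = 0.00476, the smallest that 4 against 6 libraries can give). The ratio of Mpo to Prtn3 went from 2.23 ± 0.07 to 0.02 ± 0.53, and that of Mpo to Ctsg from 3.00 ± 0.27 to -0.60 ± 1.10, with the same exact permutation p of 0.00476. Mpo was therefore lower relative to each of these proteases, and not only relative to the library. Ratios without Mpo moved too: Prtn3 to Ms4a3 by -1.89 and Elane to Ms4a3 by -1.50 (exact permutation p = 0.00476 for both), Prtn3 to Ctsg by -1.39 (0.00952), Elane to Ctsg by -1.003 (0.0143) and Prtn3 to Prss57 by -0.49 (0.0190). That of Ms4a3 to Prss57 rose by 1.40 (exact permutation p = 0.0190). The ratios are not corrected for GC content. With the GC correction the log2 fold changes were -1.93 for Ms4a3, -0.60 for Elane, -0.999 for Prtn3 and -0.816 for Prss57. The direction of the ratios of Elane and Prtn3 to Ms4a3, and of Ms4a3 to Prss57, therefore depends on that choice. The ratio of Elane to Prtn3, its neighbour on chromosome 10, moved by 0.39 (exact permutation p = 0.129) and that of Elane to Prss57 by -0.10 (exact permutation p = 0.805). Between Mir139KO HSPC and WT HSPC the smallest exact permutation p of the 15 ratios was 0.171.

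Between the vectors 6 of the 15 ratios did not overlap, and none passed after Benjamini-Hochberg adjustment (exact permutation test, smallest adjusted p = 0.25). The log2 ratio of Elane to Prtn3 was 1.13 ± 0.01 in puro and 0.46 ± 0.31 in neo, and that of Prtn3 to Ctsg -1.20 ± 0.06 in puro and -0.04 ± 0.29 in neo (SD, n = 3; exact permutation p = 0.1 for both, the smallest that 3 against 3 can give). Of the 3 puro cultures 2 are MLL-AF9 4 and 6, the closest pair of libraries. Other ratios spread more within puro, such as that of Mpo to Elane (-1.40 ± 0.53, against -0.16 ± 0.60 in neo). Over the 6 cultures, the correlation of log2 levels was highest between Elane and Prtn3 (0.913) and lowest between Mpo and Ctsg (0.388), a description over 6 points that hold both vectors.

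**Figure D4:**
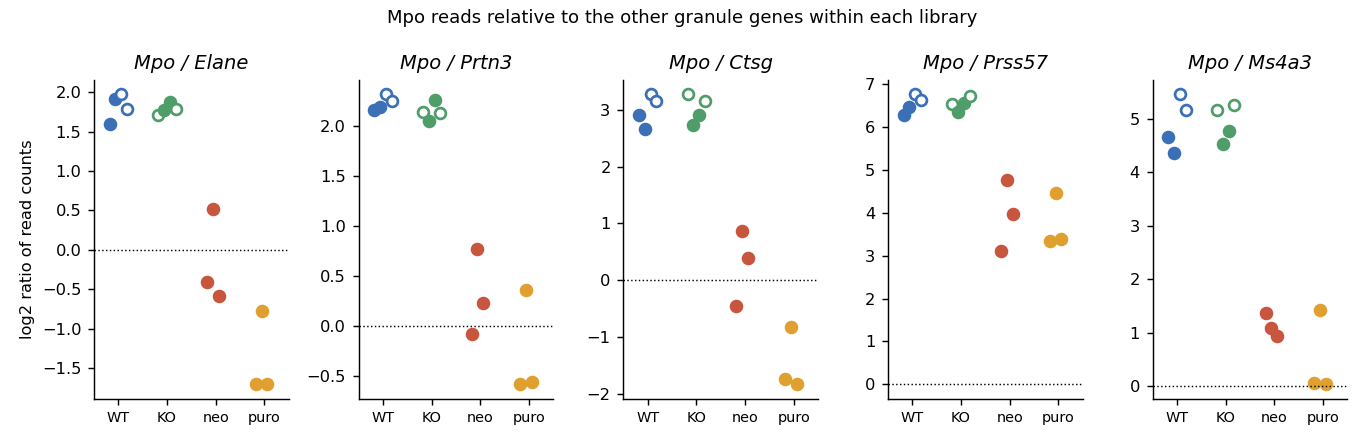
Log2 ratio of Mpo reads to reads of each of the other 5 genes in every library, grouped as WT HSPC (WT), Mir139KO HSPC (KO), neo and puro, with open circles for libraries with over 25% of counts in Gm26917 and a dotted line at equal reads. For Elane the HSPC points lie together and, with the exception of MLL-AF9 2, the cultures lie below 0.

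The regulators of these genes moved in both directions between WT HSPC and MLL-AF9. Of 9 listed, 8 were tested, 2 rose and 2 fell, with a median log2 fold change of 0.21 against 0.14 for all genes. Over all genes 62.2% passed and 29.4% were lower. Runx1, which encodes the core binding factor that activates Mpo and Elane, rose from 200.3 ± 99.9 to 949 ± 228 CPM (log2 2.24, edgeR adjusted p = 4.15e-04). Gfi1, a repressor needed for neutrophil development, rose from 36.9 ± 5.86 to 161 ± 57.3 CPM (2.12, 1.51e-04). Gfi1b, its relative in erythroid cells and megakaryocytes, fell from 146 ± 78.1 to 0.320 ± 0.191 CPM (log2 -8.83, 1.65e-06). Cebpa, which encodes C/EBPα, fell from 222 ± 96.1 to 83.3 ± 48.4 CPM (log2 -1.42, 0.0170).

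Among the cultures, Cebpa ran from 33.0 to 56.8 CPM with neo and from 98.4 to 145 CPM with puro. Between the vectors 0 of the 8 tested regulators passed, Cebpa included, and 19.9% of all genes did not overlap. In MLL-AF9 against WT HSPC, Spi1, which encodes PU.1, had a log2 value of -0.28 (edgeR adjusted p = 0.378) and Myb 0.09 (0.838). Cbfb, the partner of Runx1, had 0.89 (0.135) and Cebpe, the C/EBP factor of secondary granules, 0.34 (0.434). None of these 4 passed. Irf8, which directs progenitors to monocytes, was listed at 0 in all libraries and has no test. As for Igsf6, a 0 in every library is not taken as its level, and why it had no counts was not tested.

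Of 13 tested genes for granule packing, protease maturation and inhibition, 6 rose and 2 fell (median 0.33). The share that passed was near the 62.2% of all genes. The cysteine protease inhibitor Stfa3 rose the most, from 0.161 ± 0.216 to 51.0 ± 26.7 CPM (log2 8.20, edgeR adjusted p = 2.22e-04), and Ap3b1, a subunit of the adaptor that sorts elastase to granules, rose from 99.3 ± 45.0 to 264 ± 34.1 CPM (1.40, 0.00233). Vamp8, a fusion protein of secretory granules, fell (log2 -2.19), as did Unc13d, which primes granules for release (-1.19). Of 13 lysosomal proteins of the granule, 2 rose and 3 fell (median -0.44), a smaller share than passed over all genes. Gla (log2 1.41) and Cd63 (0.84), an alpha-galactosidase and a granule membrane protein, were the rises. Lyz2, the lysozyme of granulocytes and macrophages, fell from 1420 ± 929 to 165 ± 144 CPM (log2 -3.11, edgeR adjusted p = 0.00133), and Npc2, which carries cholesterol out of lysosomes, by -1.32 on the log2 scale. So Lyz2 fell, as Prtn3 and Elane did, while the membrane protein Cd63 rose. Which cells the Lyz2 reads came from was not tested.

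Among 15 other genes of granulocyte-monocyte progenitors and promyelocytes, 1 rose and 7 fell (median -0.99). Over all genes 62.2% passed and 29.4% were lower, which is the share to set beside the counts in these lists. The rise was in Mgst1, a glutathione transferase of membranes, from 26.1 ± 13.9 to 60.8 ± 14.1 CPM (log2 1.21, edgeR adjusted p = 0.0102). The falls were led by Fcnb, the ficolin of neutrophil precursors, from 76.4 ± 43.3 to 3.45 ± 2.96 CPM (-4.47, 3.33e-04), followed by Lyz2. Of 9 secondary and tertiary granule genes, 2 fell, a share under that of all genes, and none rose (median -1.19). The 2 were Ltf, lactoferrin (log2 -3.28), and Mmp9, gelatinase B (-2.53). Of the late neutrophil markers, 2 of 8 were lower, and their summed level ran from 351 to 8463 CPM in WT HSPC and from 249 to 3777 CPM in MLL-AF9. Of the monocyte and macrophage markers, 2 of 8 were higher and 4 lower, with sums of 710 to 1030 CPM and 192 to 1097 CPM. The part of either cell type in the granule gene levels was not tested.

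Other serine proteases of granules, made by mast cells, basophils and lymphocytes, fell in 5 of 7 tested (median -4.15), against 29.4% of all genes. Prss34, a basophil protease, fell from 836 ± 397 to 0.545 ± 0.841 CPM (log2 -10.57, edgeR adjusted p = 1.39e-04). Gzma, the granzyme of T and NK cells, ran from 0.735 to 1.81 CPM in WT HSPC and was at 0 in all 6 cultures, at least 20.4-fold lower when 3 counts per library are taken as the floor. Prss34 and Gzma are also among the markers of mast cells and basophils and of T and NK cells given above, so the lists are not independent.

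Genes that start within 100000 bases of a member were taken without regard to function. Of 76, 38 were tested, and 6 rose and 15 fell (median -0.46 against 0.14), where 62.2% of all genes passed and 29.4% were lower. Around Elane 2 of 14 rose and 7 fell, around Prtn3 2 of 14 and 6, and around Prss57 none of 13 rose and 6 fell. These 3 lie close together and share neighbours. Around Mpo 1 of 6 rose and 2 fell, around Ctsg none of 2 rose and 1 fell, and around Ms4a3 none of 4 rose and 1 fell. Around Igsf6, which has no counts itself, 3 of 6 rose and 1 fell.

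**Figure D5:**
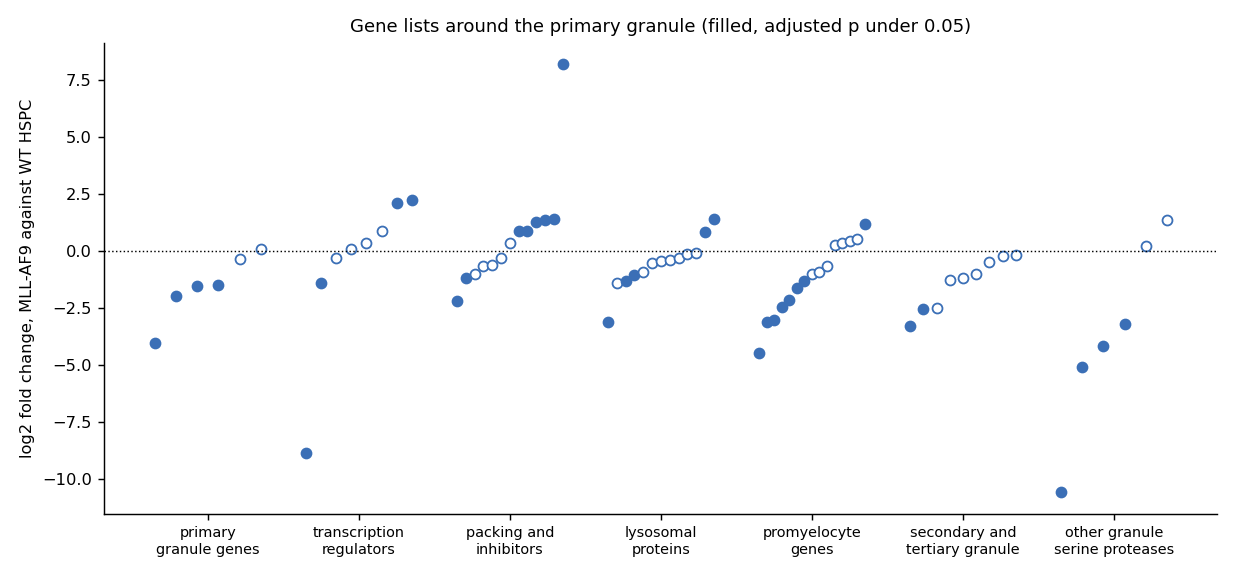
Log2 fold change in MLL-AF9 against WT HSPC (vertical axis) of the 6 primary granule genes and of the genes in the 6 lists around them, sorted within each list, with filled points for an adjusted p under 0.05 in edgeR. Gzma, at 0 in all cultures, is not drawn. Regulators and packing genes lie on both sides of 0, and the other granule serine proteases that passed all lie below it.

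Against Mir139KO HSPC, with the same cultures, most lists held more falls: 3 regulators rose and 2 fell, 6 packing genes rose and 4 fell, 2 lysosomal genes rose and 6 fell, 1 promyelocyte gene rose and 10 fell, 5 secondary granule genes fell and none rose, and 5 other serine proteases fell and none rose. Over all genes 69.3% passed and 31.9% were lower against Mir139KO HSPC. No gene of any list passed between Mir139KO HSPC and WT HSPC. Between the vectors few did, where 144 of all genes passed in edgeR. With MLL-AF9 4 and 6, the closest pair of libraries, summed, only a few of all genes passed. Without replicate 2 or without replicate 3 none did (all counts are given below). The calls named next rest on all 6 cultures. Slpi, an inhibitor of elastase and cathepsin G, was higher in puro, at 148 ± 66.9 CPM against 10.6 ± 3.56 in neo (log2 3.82, edgeR adjusted p = 0.0310). Cst7, cystatin F, which inhibits the cathepsin C that activates these proteases, was also higher (log2 1.70, 0.0416), as was the progenitor lectin receptor Clec12a (2.65, 0.0478). Camp, the cathelicidin of secondary granules, was lower in puro, at 5.53 ± 1.66 CPM against 118 ± 33.5 in neo (log2 -4.41, 0.0140), and so was Fcnb (-2.83, 0.0290), with Tmem216 (-1.79, 0.0379). Among the marker lists, the monocyte marker Ccr2 was higher in puro, at 112 to 374 CPM against 2.26 to 5.62 in neo (log2 6.30, 0.0261), and no progenitor marker passed. The summed progenitor markers ran from 636 to 1186 CPM in puro and from 305 to 485 in neo, and the summed monocyte and macrophage markers from 305 to 1097 and from 192 to 620 CPM. Of the progenitor markers, Meis1 alone ran from 435 to 923 CPM in puro and from 126 to 243 in neo. Kit (47.0 to 70.9 and 42.0 to 117 CPM), Hoxa9 and Ly6a overlapped between the vectors. Cd34 and Flt3 were higher in puro, but reached only 1.62 and 5.49 CPM. The part of these marker sums in the Ctsg difference was not tested. Ctsg, whose product Slpi inhibits, was the primary granule gene with the largest difference between the same cultures.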

How the data were processed

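Raw read counts per gene were used as deposited. The authors mapped the reads to GRCm38 with STAR 2.5.3e and counted them per gene with featureCounts 1.6.0 on GENCODE vM15; FastQC 0.11.8, MultiQC and DESeq2 1.22.2 also stand in the submitters' processing notes. The strand and feature settings are not given in the sources used here. Positions and lengths came from GENCODE vM21, which held 52403 of the 52550 identifiers. A second deposited table also held 10 columns of samples from another series, which were not used. Genes with at least 10 counts in as many libraries as the smaller group were tested with edgeR 4.0.16 in R 4.3.3 (TMM factors, robust quasi-likelihood F test, Benjamini-Hochberg adjustment over all genes tested, adjusted p under 0.05), using only the libraries of the comparison and no block. On simulated counts for the MLL-AF9, Mir139KO and vector comparisons, all 200 changed genes were recovered, with 13, 10 and 7 false calls. Recovery of genes that vary between libraries as much as Mpo (311 ± 206 CPM in MLL-AF9) or Ctsg (475 ± 343 CPM) was not tested. When a bias with GC content was simulated for MLL-AF9 against WT HSPC, there were 5539 false calls without the GC correction and 14 with it, and the fits reported first use no such correction. Alternatives used limma 3.58.1, DESeq2 1.42.0, other scaling, a GC spline with 5 degrees of freedom, subsets of libraries and a replicate block. CPM were scaled by TMM factors, with a prior count of 2 on the log2 scale for correlations. Ratios between genes used raw counts, were added to the planned tests and were tested by exact permutation of libraries. The genes and lists were chosen with earlier results of these data known. From each list, up to 2 rises and 2 falls with the largest change among those that passed are named, and all regulators. The genes most like the set were the 5 with the highest Pearson r and a mean log2 CPM of at least 3.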

Additional observations from a re-analysis of the deposited data

How the results depend on the processing

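In MLL-AF9 against WT HSPC and against Mir139KO HSPC, Mpo, Prtn3 and Prss57 kept their direction and passed in 14 of 14 other settings and in 10 of 10 fits that each left out a library. Against WT HSPC the other settings ran from -4.70 to -3.14 (log2) for Mpo, from -2.59 to -0.999 for Prtn3 and from -2.06 to -0.80 for Prss57. Elane passed in 10 of 14 against WT HSPC and in 11 of 14 against Mir139KO HSPC, where it missed with total counts (-0.88), GC correction (-0.74) and the HSPC libraries under 25% Gm26917 (-1.17). Ctsg turned positive against WT HSPC with total counts (0.34), GC correction (0.10), libraries under 25% (0.18) and puro alone (0.29), and against Mir139KO HSPC with total counts (0.24) and puro alone (0.15). It passed against Mir139KO HSPC with all 14 libraries in a single fit (-0.72). Ms4a3 turned negative against WT HSPC with RLE factors (-0.00721), DESeq2 (-0.00723), limma-voom (-0.0450), GC correction (-1.93), libraries over 25% (-0.30) and neo alone (-0.0367), and ran from -0.0646 to 0.278 when each library was left out. Against Mir139KO HSPC its value was 0.61 with total counts, 0.00761 under 25%, 0.0492 with puro alone, -2.01 with GC correction, and -0.23 to 0.10 when each library was left out. In Mir139KO HSPC against WT HSPC, Mpo (-0.0853), Ctsg (-0.0868) and Prss57 (-0.00316) were negative over 25%, where under 25% they had 0.50, 0.47 and 0.43. Leaving out a library there gave -0.13 to 0.39 for Mpo, -0.0884 to 0.403 for Elane, -0.0129 to 0.466 for Prtn3, -0.0686 to 0.308 for Ctsg and -0.0855 to 0.345 for Prss57, and 1 gene of all passed within each share class. Total counts moved the share of higher calls among all genes that passed from 52.7% to 68.3% against WT HSPC and from 53.9% to 71.4% against Mir139KO HSPC.

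Same-numbered libraries did not deviate together in a steady way (correlations of -0.06 to 0.10, -0.65 to 0.72, 0.02 to 0.19 and -0.34 to 0.47 in the 4 comparisons). In Mir139KO HSPC against WT HSPC, numbers 2 and 4, each in the same Gm26917 class in both groups, had 0.72 and 0.51. Numbers 1 and 3, in opposite classes, had -0.63 and -0.65. Replicate numbers were therefore not taken to pair the libraries. With a replicate block Ctsg had -1.05 against WT HSPC, -1.27 against Mir139KO HSPC and 1.62 in puro against neo and passed in all 3, and Ms4a3 had -0.24 against WT HSPC. With GC correction and block Ms4a3 had -1.94 and -2.14. Between the vectors, 1 of the 6 genes (Ctsg) passed with DESeq2, with all 14 libraries, with the block, and with GC correction and block, and 0 to 1 when each library was left out. Mpo had 0.29 with MLL-AF9 4 and 6 summed and -0.97 to 0.43 when each culture was left out, Ms4a3 -0.16 to 0.70 and Prss57 -0.19 to 0.28. Over all genes, 144 passed between the vectors, 1326 with DESeq2, 221 with no filter on low counts, 692 with all 14 libraries, 214 with the block, 270 with GC correction and block, and 5 with MLL-AF9 4 and 6 summed. Without replicates 1 to 6 in turn the count was 41, 0, 0, 5, 990 and 3, with fewer libraries in each fit. The cause of the other changes was not tested. With the longest transcript as length, Prtn3 stood at 1038 CPM per kb in WT HSPC. Exon bases outside other genes, a length chosen after seeing the data, put Mpo at 2329 CPM per kb in Mir139KO HSPC and Prss57 at 30.9 in WT HSPC.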

Other observations

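The genes whose log2 level followed the mean of the 6 primary granule genes most closely over all 14 libraries, among 8532 compared, were Atxn7l2 (Pearson r = 0.987), Klhl21 (0.987), Fbxo21 (0.986), Psmb1 (0.985) and Slc25a28 (0.981). The 14 points hold the difference between HSPC and cultures, which many genes share. Over the 6 MLL-AF9 cultures alone, among 8702 genes, they were Ide (0.998), Nav2 (0.998), Uhrf2 (0.998), Micu3 (0.995) and Trim11 (0.994). No name stood in both groups of 5, and no p is given for these values. Among the neighbours of the primary granule genes, Epx, the eosinophil peroxidase beside Mpo, fell by 6.26 on the log2 scale in MLL-AF9 against WT HSPC, and Mcpt8, a basophil protease near Ctsg, with a log2 value of -5.08. Mettl9, which surrounds Igsf6, rose from 32.0 ± 16.0 to 137 ± 45.9 CPM (log2 2.09). By Dixon's test at 95%, none of 18 gene and group combinations held a library apart from its group, Ms4a3 in MLL-AF9 1 included.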
